A study of Triticum aestivum with 6 samples.

Results

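Heat shock proteins and the transcription factors that control them were described in roots of wheat (Triticum aestivum). The genes were chosen by name alone: a gene belonged if the protein name that the table gives first contains "heat shock" or "heat stress transcription factor". This found 313 of 83219 genes. By name, 107 are small heat shock proteins, 90 are HSP70 proteins, 18 are HSP90 proteins and 68 are heat stress transcription factors, and 30 carry another heat shock name. The names are matches to proteins of 13 species, mostly rice (144 genes), Arabidopsis (52) and wheat itself (21), and are not curated wheat gene names.

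Seedlings of the wild-type line JW1 lost their endosperm 3 days after germination, were fed 2 mM nitrate over the next 3 days and were then starved of nitrogen, for 2 days. For the last 3 h the 2N+ABA group received 2 mM KNO3 and the 0N+ABA group 2 mM KCl, and both groups received 5 µM abscisic acid (ABA), a stress hormone. Each group has 3 samples, and no label states separate cultures for them. The p-values therefore reflect differences among these 6 samples, some of which may be technical. The day was at 22 °C and the night at 16 °C, with no heat treatment in the labels. Nitrate and chloride change together between the groups, so their effects cannot be told apart.

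Heat shock proteins are chaperones: they hold or refold proteins that have lost their shape. Small heat shock proteins bind unfolding proteins without using ATP, HSP70 proteins fold them in cycles of ATP use with the help of J-domain proteins, and HSP90 proteins bring signalling proteins such as receptors and kinases to their mature form. Heat stress transcription factors switch their genes on. In plants they fall into class A, which activates transcription, class B, several of whose Arabidopsis members repress it, and class C, which is larger in grasses and less well understood.

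The libraries held 16907317 to 17735564 estimated counts. On the first principal component the 2N+ABA libraries lay between -59.9 and -38.8, and 0N+ABA replicates 1 and 3 at 63.8 and 74.1, whereas the remaining library, 0N+ABA replicate 2, stood at 1.28, between both groups. For genes described in full, calls that change when this library is left out are given both ways. One label names leaf tissue, and the tissue and source labels name root. Of 107 leaf photosynthesis genes, 2 averaged at least 10 TPM and 21 had no count, and the list summed to 98.2 to 224 TPM in 2N+ABA and 153 to 221 TPM in 0N+ABA. Genes for Casparian strip membrane proteins, which mark the root endodermis, summed to 158, 191 and 188 TPM in the 2N+ABA replicates and to 117, 198 and 118 TPM in the 0N+ABA replicates. In these whole roots, fewer cells of a type and less RNA per cell cannot be told apart.

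Most heat shock genes did not pass the test. Of the 313 genes, 174 had enough counts to be tested, and 22 had no count in any library. Among the 174, 4 rose in 2N+ABA (2.3%) and 0 fell, by edgeR's quasi-likelihood test at an adjusted p under 0.05, where 2.25% of all 53862 tested genes differed. The members' share is thus close to that of all genes. DESeq2 called 9 higher and 3 lower, limma-voom 2 higher and 0 lower, out of tools that called 4.2% and 2.06% of all genes. With p below 0.05 before adjustment, 30 were higher and 9 lower (22.4% together). Of all genes 16.4% did so, 8.62% higher and 7.77% lower. The median log2 fold change was 0.01 over the tested members and -0.02 over all tested genes, and 144 of the 174 members differed by less than 1.5-fold. CPM values (counts scaled to library size, with TMM factors) of the groups did not overlap in 47 members (27.0%, against 22.1% of all genes), with 2N+ABA above in 34 and below in 13.

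**Figure D1:**
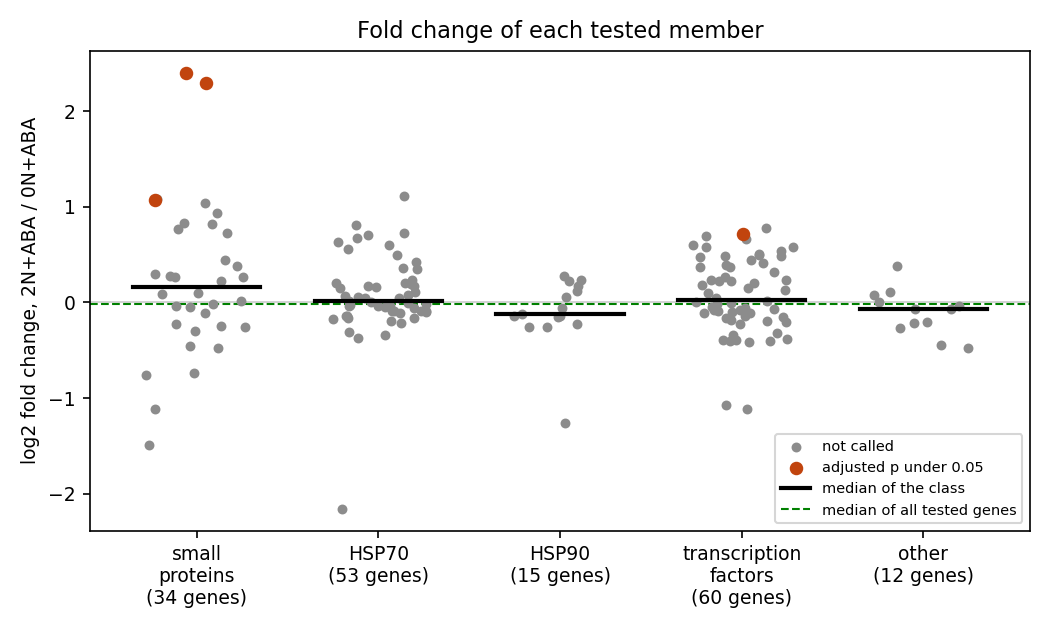
Log2 fold changes (2N+ABA over 0N+ABA) of the 174 tested genes, 1 point a gene, by class, with the class median as a bar and the median of all tested genes as a dashed line. The 4 genes with an adjusted p under 0.05 are all above 0, and the class medians lie between -0.12 and 0.16.

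By the authors' TPM, which allows levels of different genes to be compared per length, HSP70 genes held 52.1% of the summed level of all 313 genes and the transcription factors 28.6%. HSP90 genes held 10.8% and small heat shock proteins 5.1%. The first 2 classes thus carried most of the heat shock transcripts in these roots, and the small proteins few.

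Among small heat shock proteins, 3 of 34 tested genes rose in 2N+ABA (8.82%, against 1.67% of all genes that rose) and 0 fell by edgeR. Before adjustment 8 were higher and 2 lower at p under 0.05 (29.4%, against 16.4% of all genes). DESeq2, which called 4.2% of all genes, called 4 higher and 1 lower. With limma-voom, which called 2.06% of all genes, 1 was higher and 0 lower. The other 73 genes had too few counts to be tested. Because a gene passed that filter through the group in which it is high, these counts describe the tested genes and not the class. The summed level was 222, 285 and 259 TPM in the 2N+ABA replicates, against 234, 271 and 241 TPM in the 0N+ABA replicates, and the groups overlapped.

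The gene with the smallest adjusted p was a 21.9 kDa heat shock protein gene on chromosome 4A (TraesCS4A02G226700). It had 1.20, 2.07 and 1.63 CPM in 2N+ABA, against 0.287, 0.401 and 0.295 CPM in 0N+ABA. Every 2N+ABA library was above every 0N+ABA library, at low levels throughout. It averaged 1.64 ± 0.436 CPM in 2N+ABA and 0.328 ± 0.0636 CPM in 0N+ABA (SD, n = 3 each), a log2 fold change of 2.29 (SE 0.338, edgeR adjusted p = 0.0147). The adjusted p was 0.0387 without 2N+ABA replicate 1 and 0.0096 without 0N+ABA replicate 2, whereas leaving out 2N+ABA replicate 2 or 3 gave 0.053 or 0.0614, and leaving out 0N+ABA replicate 1 or 3 gave 0.0701 or 0.0681. Its copy on chromosome 4D (TraesCS4D02G086200), named here after its values were seen, had 4.46, 5.18 and 6.31 CPM in 2N+ABA and 2.12, 4.06 and 2.12 CPM in 0N+ABA, with a log2 fold change of 0.94 (edgeR adjusted p = 0.131). Without 0N+ABA replicate 2, the library with the high value, its adjusted p was 0.00811.

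The other 2 genes that rose encode class I proteins, which act in the cytosol and nucleus. The 16.9 kDa class I heat shock protein 1 gene TraesCS3A02G034500 had 3.03, 4.03 and 4.62 CPM in 2N+ABA and 1.89, 1.89 and 1.77 CPM in 0N+ABA. Its log2 fold change was 1.07 (SE 0.205, edgeR adjusted p = 0.0386). The 16.9 kDa class I heat shock protein 2 gene TraesCS3D02G046700 had 1.77, 3.36 and 2.03 CPM in 2N+ABA and 0.344, 0.801 and 0.177 CPM in 0N+ABA. Its log2 fold change was 2.41 (SE 0.468, edgeR adjusted p = 0.0401). In both genes the groups did not overlap, and 0N+ABA replicate 2 was the highest of its group only in the second. Both kept their call without 0N+ABA replicate 2 (adjusted p = 0.0281 and 0.00618) and lost it without any other single library, with adjusted p between 0.059 and 0.142 for the first and between 0.104 and 0.142 for the second. By limma-voom neither passed (adjusted p = 0.053 and 0.0504).

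**Figure D2:**
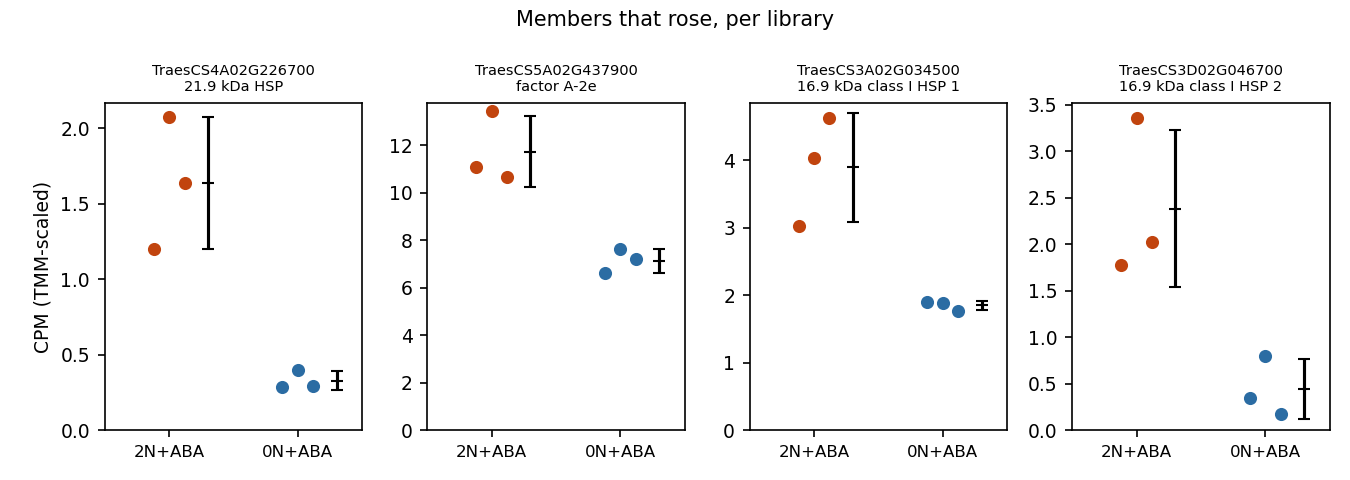
CPM in each of the 6 libraries for the 4 genes with an adjusted p under 0.05, with 2N+ABA left of 0N+ABA. Points are libraries, and bars are the mean ± SD of 3. In each gene all 3 points of 2N+ABA lie above the 3 points of 0N+ABA.

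Class I was the largest group of small proteins, with 14 of 35 genes tested and a median log2 fold change of 0.24. The genes with the highest levels did not pass the test. A 17.9 kDa class I gene (TraesCS4B02G212200) averaged 28.6 TPM over all libraries and had a log2 fold change of 0.26 (adjusted p = 0.47), and another (TraesCS4D02G213100) averaged 18.7 TPM, with -0.04 (adjusted p = 0.914). The 17.9 kDa heat shock protein 2 gene TraesCS3B02G048700 averaged 30.8 TPM, with a log2 fold change of 0.09 (adjusted p = 0.895). The class I gene with the largest spread within a group, TraesCS4A02G092900, had 1.20, 1.53 and 1.47 CPM in 2N+ABA and 2.01, 1.72 and 0.590 CPM in 0N+ABA.

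Class II and most organelle proteins were scarce. All 20 class II genes, each named as a 17.5 kDa protein of the cytosol, had too few counts to be tested, and together they reached 3.19, 6.28 and 3.83 TPM in 2N+ABA and 5.27, 2.42 and 5.01 TPM in 0N+ABA. A chloroplast small heat shock protein gene (TraesCS4B02G225300) had 4.63, 3.78 and 4.17 CPM in 2N+ABA and 2.75, 2.06 and 2.30 CPM in 0N+ABA. Those groups did not overlap, and the gene did not pass the test (log2 fold change 0.82, SE 0.179, edgeR adjusted p = 0.0581).

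The tested genes for mitochondrial small proteins had values in the other direction, some of them near 0. Of 25 genes 5 were tested, all with a negative log2 fold change (-1.49 to -0.01, median -0.74), and none passed edgeR's test. Before adjustment 2 were lower at p under 0.05 (40%, against 7.77% of all genes). DESeq2 called 1 and limma-voom 0, where they called 4.2% and 2.06% of all genes. These counts describe the 5 tested genes and not all 25. The 26.2 kDa gene TraesCS7A02G232500, named after its values were seen like the next one, had 1.43, 1.16 and 1.58 CPM in 2N+ABA and 3.21, 2.18 and 3.71 CPM in 0N+ABA. The groups did not overlap, with a log2 fold change of -1.12 (SE 0.256, edgeR adjusted p = 0.0682, DESeq2 adjusted p = 0.0329). The 24.1 kDa gene TraesCS6B02G346700 had 0.400, 0.305 and 0.676 CPM in 2N+ABA and 2.07, 0.458 and 1.42 CPM in 0N+ABA, so 0N+ABA replicate 2 lay with the 2N+ABA libraries. Without that library its edgeR adjusted p was 0.0209 and that of TraesCS7A02G232500 was 0.0108.

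Small heat shock protein genes often had neighbouring gene IDs. Of the 107 genes, 71 stood in 15 runs of neighbouring IDs, the longest of 8 genes, and 33 of the genes lie on chromosomes 3A, 3B and 3D. Copies in such runs and on the A, B and D subgenomes can be near-identical, and how the authors' counting divided reads among them is not stated, so the share of each copy is uncertain.

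No HSP70 gene passed the test, in 53 of 90 genes tested by edgeR. Before adjustment 7 were higher and 2 lower at p under 0.05 (17%, close to the 16.4% of all genes). DESeq2, which called 4.2% of all genes, called 3 higher and 1 lower, and limma-voom 0. Each of the 3 genes with the highest levels lies on chromosome 5 and encodes a cytosolic type of HSP70, the general folding chaperone. TraesCS5B02G492500 averaged 664 TPM and ranked 115 of all genes, TraesCS5D02G492900 averaged 500.3 TPM and TraesCS5A02G479300 427 TPM, and together they held 61.8% of the HSP70 level. TraesCS5B02G492500 had 1416, 1421 and 1271 CPM in 2N+ABA and 1534, 1397 and 1773 CPM in 0N+ABA, with a log2 fold change of -0.20 (SE 0.131, edgeR adjusted p = 0.519). The groups overlapped, and so did those of the other copies, at -0.17 each (adjusted p = 0.58 each).

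A second set of HSP70 genes, on chromosome 4, had higher values in 2N+ABA that did not pass edgeR's test. TraesCS4D02G207500 had 314, 265 and 274 CPM in 2N+ABA and 129, 178 and 209 CPM in 0N+ABA, with a log2 fold change of 0.72 (SE 0.177, edgeR adjusted p = 0.0815). TraesCS4A02G097900 had 359, 303 and 314 CPM in 2N+ABA and 151, 243 and 220 CPM in 0N+ABA, with a log2 fold change of 0.67 (SE 0.178, edgeR adjusted p = 0.103). The groups did not overlap in either gene, and both were called by DESeq2 (adjusted p = 0.00651 and 0.0167) and, once 0N+ABA replicate 2 was left out, by edgeR at adjusted p = 0.0444 and 0.0197. The copy on chromosome 4B, TraesCS4B02G206700, named after its values were seen, had 359, 318 and 324 CPM in 2N+ABA and 167, 252 and 263 CPM in 0N+ABA, with a log2 fold change of 0.55 (adjusted p = 0.161). HSP70 copies of chromosome 4 and of chromosome 5 thus had fold changes of opposite sign, and the difference between them was not tested.

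**Figure D3:**
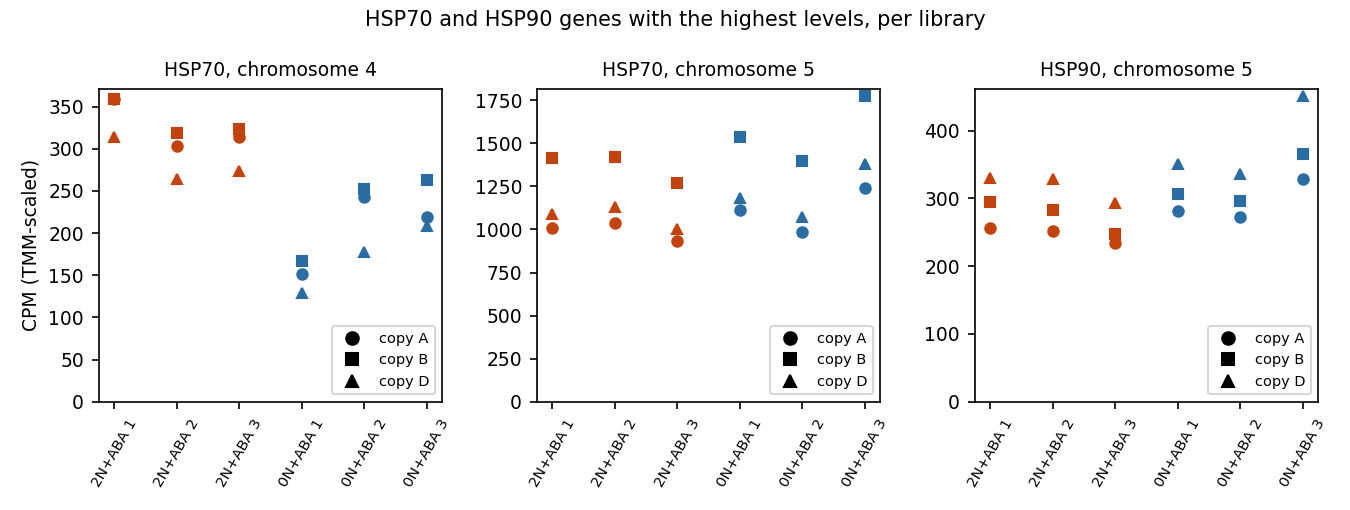
CPM (y axis, linear, from 0) per library (x axis) of the A, B and D copies of HSP70 genes on chromosomes 4 and 5 and of HSP90 genes on chromosome 5, 2N+ABA left of 0N+ABA, 1 point a library and copy. Each chromosome 4 copy is higher in every 2N+ABA library, each chromosome 5 HSP70 copy overlaps between the groups, and each HSP90 copy is lower in every 2N+ABA library.

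Heat shock cognate 70 genes, named after forms made without heat, had the widest range of fold changes within HSP70 (log2 fold changes of -2.16 to 1.11 in 11 tested genes). TraesCS4D02G206600 had 33.1, 49.8 and 36.7 CPM in 2N+ABA and 11.9, 26.1 and 17.2 CPM in 0N+ABA, without overlap (log2 fold change 1.11, SE 0.271, edgeR adjusted p = 0.0808). DESeq2 called it (adjusted p = 0.00239), as did edgeR without 0N+ABA replicate 2 (adjusted p = 0.00533). TraesCS3B02G390700 had 0.286, 0.671 and 0.564 CPM in 2N+ABA and 3.84, 0.458 and 2.54 CPM in 0N+ABA (log2 fold change -2.16, SE 0.693, edgeR adjusted p = 0.168). Here 0N+ABA replicate 2 lay within the 2N+ABA values, and the adjusted p without it was 0.00399.

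None of the tested HSP70 genes of the organelles or of the endoplasmic reticulum passed edgeR's test. The 5 tested chloroplast genes had log2 fold changes between 0.06 and 0.24 and the 6 tested mitochondrial genes between -0.10 and 0.18. Genes named HSP70 14 to 17, which in Arabidopsis act with other HSP70 proteins and exchange their nucleotide, had 13 of 14 genes tested, between -0.21 and 0.20. Of 17 genes named BIP, the HSP70 of the endoplasmic reticulum, 1 was tested: TraesCS2B02G125400 had 7.44, 6.04 and 6.88 CPM in 2N+ABA and 4.71, 4.87 and 3.54 CPM in 0N+ABA, without overlap (log2 fold change 0.63, SE 0.166, edgeR adjusted p = 0.0984, and 0.0444 once 0N+ABA replicate 2 was left out). The 17 genes summed to a mean of 3.82 TPM in 2N+ABA and 2.85 TPM in 0N+ABA. Another 8 genes carry the name luminal-binding protein, a second name of BIP, and fall outside the rule. They summed to a mean of 136.6 TPM in 2N+ABA and 137.2 TPM in 0N+ABA. Of these, 4 were tested, with log2 fold changes between -0.05 and 0.22, and the groups overlapped in each.

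None of the 15 tested HSP90 genes, of 18, passed edgeR's test. Before adjustment 0 were higher and 1 lower at p under 0.05 (6.67%, against 16.4% of all genes). DESeq2, which called 4.2% of all genes, called 1 lower, and limma-voom, which called 2.06%, called 0. The summed level of the 18 HSP90 genes was 509, 475 and 459 TPM in the 2N+ABA replicates. It was 552, 537 and 674 TPM in the 0N+ABA replicates, and the groups did not overlap. Most of it came from 3 genes on chromosome 5, which held 84.7% of the level. TraesCS5D02G268000, named heat shock protein 81-1, had 329.5, 328.9 and 294 CPM in 2N+ABA and 350.4, 337 and 451 CPM in 0N+ABA (log2 fold change -0.26, SE 0.139, edgeR adjusted p = 0.414). TraesCS5B02G258900 had a log2 fold change of -0.23 (adjusted p = 0.428) and TraesCS5A02G260600, named heat shock cognate protein 80, -0.25 (adjusted p = 0.327). In all 3 every 2N+ABA library was below every 0N+ABA library, and none passed the test. Over the 15 tested HSP90 genes the groups stood apart in 4, each with 2N+ABA below (26.7%). Of all genes 22.1% stood apart, 10.8% with 2N+ABA below.

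The HSP90 gene with the smallest p was present at low levels. TraesCS2A02G033700 had 1.60, 1.46 and 1.35 CPM in 2N+ABA and 4.53, 1.83 and 4.25 CPM in 0N+ABA, without overlap (log2 fold change -1.26, SE 0.34, edgeR adjusted p = 0.107). Its adjusted p was 0.0296 by DESeq2 and 0.00325 by edgeR without 0N+ABA replicate 2, the lowest library of its group. A mitochondrial HSP90 gene, TraesCS5B02G106300, had a log2 fold change of 0.22 (adjusted p = 0.405).

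Among heat stress transcription factors edgeR called 1 of 60 tested genes higher (1.67%, the same share as the 1.67% of all genes) and 0 lower. Before adjustment 15 were higher and 4 lower at p under 0.05 (31.7%, against 16.4% of all genes). DESeq2, which called 4.2% of all genes, called 2 higher and 0 lower. With limma-voom, which called 2.06% of all genes, 1 was higher and 0 lower. The gene that rose by edgeR was TraesCS5A02G437900, for the class A factor A-2e. Class A-2 factors in Arabidopsis keep up the response during long heat. It had 11.1, 13.4 and 10.7 CPM in 2N+ABA and 6.60, 7.61 and 7.19 CPM in 0N+ABA, without overlap, and a log2 fold change of 0.71 (SE 0.133, edgeR adjusted p = 0.0349). The call held without 0N+ABA replicate 2 (adjusted p = 0.0161) and was lost without any other single library (adjusted p between 0.0802 and 0.121). Its copies on chromosomes 5B and 5D, TraesCS5B02G440700 and TraesCS5D02G445100, named after their values were seen, had log2 fold changes of 0.23 (adjusted p = 0.543) and -0.08 (adjusted p = 0.901).

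The other class A genes had mostly small differences, with 29 of 35 tested and a median log2 fold change of -0.11. Factor A-3, which in Arabidopsis links the drought-responsive DREB2A to heat shock genes, had a negative log2 fold change in each of its 3 genes. None of them passed edgeR's test. TraesCS2D02G211400 had 2.35, 3.48 and 1.41 CPM in 2N+ABA and 8.26, 2.63 and 4.72 CPM in 0N+ABA (log2 fold change -1.12, SE 0.438, edgeR adjusted p = 0.254). It had the largest spread within a group of all factors that averaged at least 1 CPM. The groups overlapped because of 0N+ABA replicate 2, and without it the adjusted p was 0.037. The copies TraesCS2A02G204500 and TraesCS2B02G232000, named after their values were seen, had log2 fold changes of -0.40 and -1.07 (edgeR adjusted p = 0.508 and 0.208). Their groups overlapped as well. Without 0N+ABA replicate 2 edgeR called TraesCS2B02G232000 (adjusted p = 0.029).

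Class B genes had higher values in 2N+ABA in 14 of 15 tested genes (median log2 fold change 0.42). None passed edgeR's adjusted threshold. By DESeq2 and limma-voom 1 and 0 did, where these tools called 4.2% and 2.06% of all genes. Once 0N+ABA replicate 2 was left out, edgeR called 6 of the 15 higher, where it called 8.38% of all genes higher or lower. The 6 were the 3 genes of B-1, the 7B and 7D genes of B-2b and the 2A gene of B-4b. Before adjustment 9 were higher and 0 lower at p under 0.05 (60%, where 8.62% of all genes were higher and 7.77% lower), and the smallest adjusted p was 0.0536. In 10 of the 15 the groups stood apart, all with 2N+ABA above (66.7%, against 11.3% of all genes). Their summed level was 146, 156 and 148 TPM in the 2N+ABA replicates and 108, 120 and 122 TPM in the 0N+ABA replicates, so every 2N+ABA library was above every 0N+ABA library. These counts describe genes that share subgenome copies and are not independent of each other.

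The factor B-1 gene TraesCS5D02G244800 had 34.8, 43.2 and 40.6 CPM in 2N+ABA and 18.9, 29.5 and 25.1 CPM in 0N+ABA (log2 fold change 0.69, SE 0.168, edgeR adjusted p = 0.0807, DESeq2 adjusted p = 0.0149, and edgeR adjusted p = 0.0113 in the fit lacking 0N+ABA replicate 2). Its copies TraesCS5A02G237900 and TraesCS5B02G236400, named after their values were seen, had log2 fold changes of 0.42 and 0.48 (adjusted p = 0.182 and 0.191, and 0.0381 and 0.0133 in that fit). The 3 copies of B-2b, on chromosomes 7A, 7B and 7D, also named after their values were seen, had log2 fold changes of 0.51, 0.58 and 0.67. With all 6 libraries none of them passed edgeR's test (adjusted p = 0.189, 0.163 and 0.187). TraesCS2A02G146600, for B-4b, had 3.78, 3.48 and 3.27 CPM in 2N+ABA and 2.01, 2.12 and 2.01 CPM in 0N+ABA (log2 fold change 0.78, SE 0.165, edgeR adjusted p = 0.0536, and 0.0398 in that fit). Its 2B copy TraesCS2B02G171900, named after its values were seen, had -0.18 (adjusted p = 0.687). TraesCS5A02G314700, for B-2c, had 35.3, 38.7 and 32.9 CPM in 2N+ABA and 27.8, 25.7 and 29.1 CPM in 0N+ABA (log2 fold change 0.37, SE 0.106, edgeR adjusted p = 0.125).

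**Figure D4:**
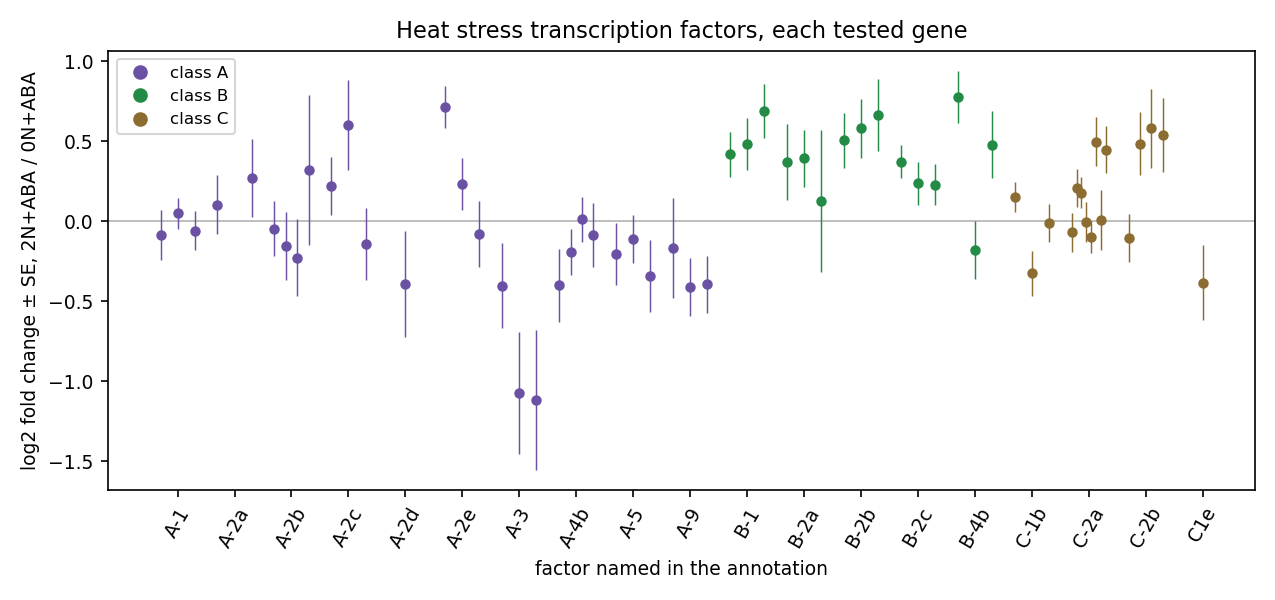
Log2 fold change (2N+ABA over 0N+ABA, y axis) of each tested heat stress transcription factor gene, grouped on the x axis by the factor it is named after, with bars of 1 SE and colours for classes A, B and C. Class B genes lie above 0 in 14 of 15 cases, and class A and class C genes lie on both sides.

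Class C genes held most of the factors' level. TraesCS3B02G568300, for C-2a, averaged 388 TPM and ranked 302 of all genes, with a log2 fold change of -0.07 (adjusted p = 0.837). TraesCS4D02G358900, also C-2a, averaged 155 TPM, at 0.00 (adjusted p = 0.995). TraesCS3B02G314600, for C-1b, averaged 108 TPM and had 71.1, 67.5 and 72.4 CPM in 2N+ABA and 77.5, 79.5 and 107 CPM in 0N+ABA (log2 fold change -0.32, SE 0.141, edgeR adjusted p = 0.304). Its 3A copy TraesCS3A02G280800, named after its values were seen, had 0.15 (adjusted p = 0.483).

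The C-2b genes of chromosome 7, also named after their values were seen, showed how far 0N+ABA replicate 2 stood apart. TraesCS7B02G272500 had 53.5, 61.7 and 57.7 CPM in 2N+ABA and 28.3, 57.0 and 30.2 CPM in 0N+ABA. The group values overlapped through replicate 2 alone, and the log2 fold change was 0.58 (SE 0.248, edgeR adjusted p = 0.294), against an adjusted p of 0.00199 without that library. Copies TraesCS7A02G355300 and TraesCS7D02G367700 had 0.49 and 0.54 (adjusted p = 0.266 and 0.296), and 0.0118 and 0.0113 without it. The Casparian strip genes given above were high in the same 0N+ABA library, and their part in this was not tested.

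Genes with other heat shock names did not differ detectably: 0 of 12 tested passed edgeR, DESeq2 or limma-voom, and 0 had p under 0.05 before adjustment. Heat shock factor-binding proteins, which in animals and Arabidopsis dampen the factors, had 7.78, 7.56 and 7.16 CPM in 2N+ABA and 7.52, 8.47 and 7.08 CPM in 0N+ABA for TraesCS5B02G195600 (log2 fold change -0.04, adjusted p = 0.921). TraesCS7D02G212600 had a log2 fold change of -0.26 (adjusted p = 0.741). Of 27 genes named after the co-chaperone STI1 of yeasts, which joins HSP70 to HSP90, 10 were tested. TraesCS1B02G013900 had -0.06 (adjusted p = 0.856), TraesCS7B02G279100 had -0.21 (adjusted p = 0.748) and TraesCS5B02G447000 had 0.39 (adjusted p = 0.713). TraesCS1D02G007800, with the largest spread, had 0.572, 1.46 and 0.676 CPM in 2N+ABA and 1.44, 0.916 and 1.42 CPM in 0N+ABA.

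Wheat carries A, B and D copies of most genes. In 30 sets, 90 members have the same name on the 3 copies of 1 chromosome number, and all 3 copies were tested in 22. The log2 fold changes had one sign in 14 of these sets, 8 positive and 6 negative, and mixed signs in 8. Reads of near-identical copies can be divided among them, so copies are not independent measurements.

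Partners of the heat shock proteins were read from lists of names. Of 125 tested J-domain (DnaJ) genes, 13 were higher and 12 lower before adjustment (20% at p under 0.05, against 16.4% of all genes). DESeq2, which called 4.2% of all genes, called 4 higher and 0 lower. With limma-voom, which called 2.06% of all genes, 2 were higher and 0 lower. By edgeR 3 were higher and 0 lower (2.4%, against 2.25% of all genes). The 3 were TraesCS6A02G264600 for ERDJ3B, of the endoplasmic reticulum (log2 fold change 0.61, adjusted p = 0.0199), TraesCS7B02G446100 for a chloroplast DnaJ protein (0.90, adjusted p = 0.0432) and TraesCS3A02G216800 for P58IPK (1.15, adjusted p = 0.0496, and 0.0654 by limma-voom). Each lost its call without any single library other than 0N+ABA replicate 2, with adjusted p between 0.0557 and 0.111, 0.122 and 0.16, and 0.063 and 0.152.

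Of 79 tested co-chaperones of HSP70 and HSP90 edgeR called 1 higher (1.27%), TraesCS2A02G322100 for BAG1 (log2 fold change 1.27, adjusted p = 0.049, and between 0.096 and 0.187 without any single library other than 0N+ABA replicate 2), and 0 fell by edgeR, DESeq2 or limma-voom. DESeq2 (adjusted p = 0.0693) and limma-voom (adjusted p = 0.0636) did not call this gene. DESeq2 called 1 other co-chaperone higher and limma-voom 0, where they called 4.2% and 2.06% of all genes. Before adjustment 12 co-chaperones were higher and 6 lower (22.8%, against 16.4% of all genes). Of 92 tested ClpB and chaperonin genes, which pull apart aggregates or enclose folding proteins, 0 passed edgeR, DESeq2 or limma-voom, with 2 higher and 5 lower before adjustment (7.61%). Of 59 tested folding genes of the endoplasmic reticulum, 0 passed any of the 3 tools, with 3 higher and 2 lower before adjustment (8.47%). These shares lie below the 16.4% of all genes. Median log2 fold changes of these 4 lists lay between -0.05 and 0.01.

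Among 51 tested other genes of the heat response 1 rose (1.96%, against 2.25% of all genes that differed), TraesCS2D02G304100 for a chloroplast ascorbate peroxidase, which removes hydrogen peroxide (log2 fold change 0.70, adjusted p = 0.0401, and between 0.0568 and 0.163 without any single library other than 0N+ABA replicate 2). By edgeR 0 fell, with 7 higher and 9 lower before adjustment (31.4%, against 16.4% of all genes). DESeq2, which called 4.2% of all genes, called 2 higher and 1 lower. With limma-voom, which called 2.06% of all genes, 1 was higher and 0 lower. MBF1c, a coactivator that acts in Arabidopsis heat tolerance, is encoded by 3 genes. TraesCS7A02G369500, named after its values were seen, had 1.03, 0.732 and 0.958 CPM in 2N+ABA and 2.81, 1.20 and 2.30 CPM in 0N+ABA (log2 fold change -1.20, SE 0.347, edgeR adjusted p = 0.129). Its groups did not overlap, and 0N+ABA replicate 2 was closest to 2N+ABA. In the other genes, TraesCS7B02G259000 and TraesCS7D02G353800, the groups overlapped through 0N+ABA replicate 2 (log2 fold changes -1.24 and -1.19, edgeR adjusted p = 0.268 and 0.316). With that library left out the 3 adjusted p-values were 0.0127, 0.0103 and 0.00878.

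How much the libraries of a group differed from each other depended on the class. The median SD of log2 CPM within a group was 0.316 in 2N+ABA and 0.383 in 0N+ABA for small heat shock proteins. For HSP70 genes it was 0.130 in 2N+ABA and 0.173 in 0N+ABA, for HSP90 genes 0.095 in 2N+ABA and 0.199 in 0N+ABA, and for the factors 0.149 in 2N+ABA and 0.240 in 0N+ABA. Over all tested genes it was 0.166 in 2N+ABA and 0.214 in 0N+ABA. Small heat shock proteins, which had low counts, thus varied more between libraries of a group than the median gene.

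The number of calls depended heavily on which libraries were in the fit. Without 0N+ABA replicate 2, 33 of 184 tested members passed (17.9%, against 8.38% of all genes), 23 higher and 10 lower, and all 4 genes reported above were among them. Leaving out any other library left 0 or 1. The count was 0 without 0N+ABA replicate 1 or 3 (0.776% and 0.791% of all genes) and 0 without 2N+ABA replicate 2 or 3 (0.98% and 0.769% of all genes). Without 2N+ABA replicate 1 the 21.9 kDa gene alone passed (0.552% of the members, against 0.514% of all genes). Of the other settings, DESeq2 size factors in edgeR called 4 members (2.23% of all genes), no filter on low counts 7 of 291 (2.05% of all genes) and a fit with a term for the replicate number 4 (1.34% of all genes). The 33 members called once 0N+ABA replicate 2 was left out included 11 higher and 2 lower factors and 6 higher and 2 lower HSP70 genes. Of its group, that library lay closest to 2N+ABA on the first principal component. Leaving it out therefore tends to widen the difference between the groups, and smaller p-values without it are no separate support.

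**Figure D5:**
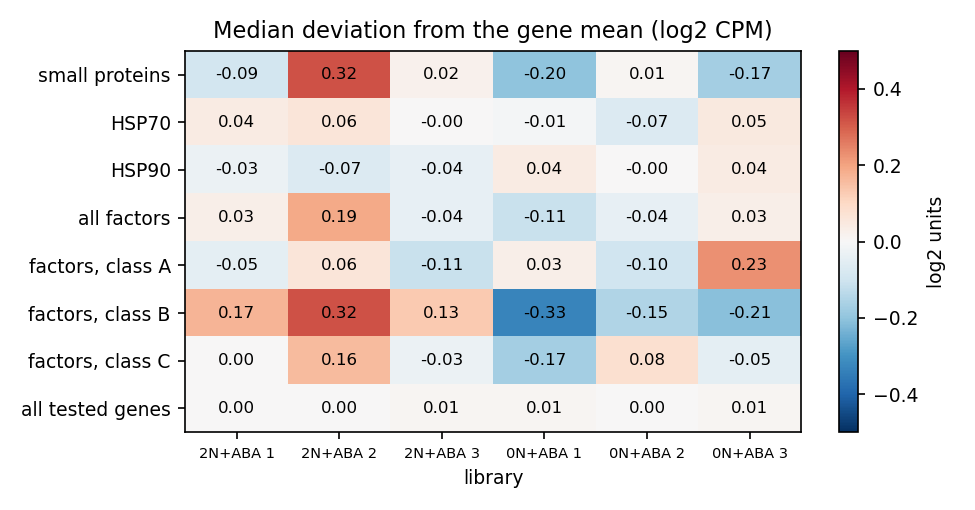
Median over genes of each library's deviation (log2 CPM) from the mean of the 6 libraries, by class, 2N+ABA left of 0N+ABA. For class B factors the 2N+ABA libraries lie at 0.13 to 0.32 and the 0N+ABA libraries at -0.33 to -0.15.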

How the data were processed

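RNA-seq of wheat roots was analysed in 6 samples, 3 of 2N+ABA and 3 of 0N+ABA, grouped by their titles. Libraries were poly(A)-selected and PCR-amplified, per the labels' protocols. No strand setting or molecular identifier is recorded there, so a count is of reads and not of molecules. The submitters' processing notes list HISAT and Bowtie2 with no version or role. For the genome build and for the counting tool, the entry is: not given in the sources used here. Per the file headers, the authors deposited estimated counts per gene without normalization, and TPM values. Their 2 further columns, for other groups, were left out.

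Estimated counts were rounded and tested with edgeR 4.0.16 under R 4.3.3. Low counts were filtered by filterByExpr, libraries were scaled by TMM, and the model was the two-sided quasi-likelihood test without covariates, adjusted by Benjamini-Hochberg over 53862 genes. Genes are said to rise or fall at an adjusted p under 0.05. Standard errors come from the quasi-likelihood F statistic. CPM values carry TMM factors. TPM values, which carry none, were used to compare levels between genes and to sum classes and lists per library. No test was run on these sums. The script was tested on simulated data. DESeq2 1.42.0, limma-voom (limma 3.58.1), DESeq2 size factors, no filter on low counts, a replicate block, a wider name match and leaving out each library were the alternatives.

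In each class the named genes are those past the threshold, the 4 with the smallest p, the 3 with the highest mean TPM and the one with the largest spread within a group; genes named beyond this rule are marked in the text. The members and the lists were chosen with earlier results of these data known. Chromosomes come from gene IDs, since 0 of the IDs matched the reference gene table at hand.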

Additional observations from a re-analysis of the deposited data

How the results depend on the processing

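Counts of genes that passed moved with the tool and the libraries, and the cause was not tested. Over all genes 898 were higher and 312 lower as reported, 1519 and 743 by DESeq2, 588 and 135 with a replicate block, and 251 to 2852 and 32 to 1755 when each library was left out in turn. Over the members, 4 higher and 0 lower became 9 and 3 by DESeq2, 2 higher by limma-voom, 2 lower with no filter on low counts, and 0 to 23 higher and 0 to 10 lower when each library was left out. Small proteins (3 higher, 0 lower) had 1 higher by limma-voom, 1 lower by DESeq2 and 1 lower with no filter, and 0 to 5 higher and 0 to 4 lower without 1 library. HSP70 (0 and 0) had 3 higher and 1 lower by DESeq2, 1 higher and 1 lower with no filter, 2 higher with the block, and 0 to 6 higher and 0 to 2 lower without 1 library. HSP90 (0 and 0) had 1 lower by DESeq2, and 0 to 1 higher and 0 to 2 lower without 1 library. Factors (1 and 0) had 2 higher by DESeq2, 0 with the block, and 0 to 11 higher and 0 to 2 lower without 1 library. DnaJ genes (3 higher) had 1 with the block, and 0 to 6 higher and 0 to 1 lower without 1 library. Co-chaperones (1 higher) had 0 by limma-voom and 0 with the block, and 0 to 2 higher and 0 to 1 lower without 1 library. ClpB and chaperonins had 0 to 1 lower without 1 library. Other heat response genes (1 higher) had 2 higher and 1 lower by DESeq2, 0 higher with the block, and 0 to 2 higher and 0 to 7 lower without 1 library. DESeq2 size factors and a wider name match left the members at 4 higher and 0 lower.

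No label says that equal replicate numbers pair samples. Same-numbered samples had correlations of 0.0757, -0.229 and -0.217 in their deviations from the group means. With 3 samples in each group, these values cannot show whether samples were paired. The replicate block kept 2 of the 4 reported members among its 4 calls; TraesCS3A02G034500 and TraesCS5A02G437900 had adjusted p = 0.0905 and 0.0701 in it, and the co-chaperone TraesCS2A02G322100 0.105. The sign changed in 7 named genes that did not pass. TraesCS4A02G092900 (-0.05) had 0.11 by limma-voom, 0.03 with the block and -0.41 to 0.27 without 1 library. TraesCS4D02G358900 (0.00) had 0.00 with DESeq2 size factors, DESeq2, limma-voom and the block, and -0.09 to 0.08 without 1 library. The others changed sign only without 1 library: TraesCS1B02G013900 (-0.14 to 0.01), TraesCS3B02G048700 (-0.14 to 0.31), TraesCS3B02G568300 (-0.16 to 0.04), TraesCS4D02G213100 (-0.09 to 0.06) and TraesCS5B02G195600 (-0.09 to 0.04). Low counts limit the small heat shock proteins most, and 73 of 107 had too few to be tested.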
